A study of Mus musculus with 2 samples.

Results

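Genes for interleukins, members of the tumour necrosis factor (TNF) superfamily, colony stimulating factors (CSFs) and their receptors were examined in whole liver RNA of mice lacking Lpcat3 in hepatocytes. Members were all probe sets whose gene symbol in the platform annotation begins with Il or Csf and a digit, with Tnfsf or with Tnfrsf, or is Tnf, Lta or Ltb. This rule gave 179 probe sets of 111 genes, out of 18193 genes with a probe set of a single symbol. They comprise 47 ligand genes (receptor antagonists included), 59 receptor chains, 2 soluble ligand-binding proteins and 3 other transcripts, namely the amino acid oxidase gene Il4i1 and the opposite strand RNAs Il1bos and Tnfsf13os. Family members named otherwise, such as Fas or Osmr, fall outside the rule and are described apart.

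Lpcat3fl/fl Albumin-Cre mice (L-Lpcat3 KO) were compared with Lpcat3fl/fl controls, which carry the same floxed alleles and no Cre. All were males aged 16 weeks, had eaten a western diet for 9 weeks from 7 weeks of age, and were fasted for 6 hr before the liver was taken. The albumin promoter drives Cre in hepatocytes, so the other cells of the liver keep an intact Lpcat3 gene, and the floxed line descends from targeted embryonic stem cells. RNA of 5 mice was pooled for each genotype and hybridised to 1 Affymetrix array. A difference between the pools therefore has no replicate check, no test was made, and the number of arrays limits the precision. Lpcat3 itself had a signal of 5173 in the control pool and 2198 in the L-Lpcat3 KO pool (log2 ratio -1.23) on its single probe set, which the sources used here do not place relative to the deleted exons.

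Cytokines of these families are secreted or membrane-bound proteins through which leukocytes, endothelium, stellate cells and hepatocytes signal to one another. Interleukins and CSFs mostly bind paired receptor chains that activate JAK kinases and STAT transcription factors, whereas IL-1 and TNF receptors recruit MyD88 and TRAF adaptors and activate NF-kB. In liver, Kupffer cells depend on the CSF-1 receptor, and hepatocytes carry receptors for IL-6 and IL-1 through which the acute phase response is switched on.

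Promoters were taken from RefSeq (build GRCm38.p6), which held one or more for 86 of the 111 genes, each covering 250 bases before and 50 bases after a transcription start. Letters associated with transcription factors of cytokine signalling were searched on both strands: GAGGAA (PU.1), TGANTCA (AP-1), TTCNNNGAA (STAT), TTGCNNAA (C/EBP), TATAAA (the TATA box) and, for NF-kB, GGG and TTTCC separated by any 2 bases. Matches are in capitals in the sequences below. Shown first are Il1rn and Il6, which both hold the NF-kB letters although the former was above the detection floor on both arrays and the latter on neither.

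Il1rn (chr2:24345041-24345340, plus strand): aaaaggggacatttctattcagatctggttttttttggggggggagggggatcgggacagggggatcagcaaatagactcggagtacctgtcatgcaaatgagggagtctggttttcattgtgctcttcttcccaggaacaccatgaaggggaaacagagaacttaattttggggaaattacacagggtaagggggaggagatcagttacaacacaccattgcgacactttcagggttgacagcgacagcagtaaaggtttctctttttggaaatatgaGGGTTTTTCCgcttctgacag
Il6 (chr5:30012864-30013163, plus strand): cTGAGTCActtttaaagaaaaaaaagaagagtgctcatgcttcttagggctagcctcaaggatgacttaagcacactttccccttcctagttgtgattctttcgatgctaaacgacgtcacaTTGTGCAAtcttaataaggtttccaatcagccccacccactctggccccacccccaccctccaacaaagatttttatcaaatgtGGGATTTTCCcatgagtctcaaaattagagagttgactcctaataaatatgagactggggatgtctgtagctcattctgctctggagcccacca

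Those of Il1a, Il18bp and Csf2rb2 are shown because these genes exceeded control by 1.5-fold or more, and that of Il6ra because it was lower. They are a selection in which every promoter holds a match. Promoters of Tnfrsf12a and Tnfrsf21 (higher) and of Tnfsf10 and Il1r1 (lower) were also searched and are not shown. Tnfrsf12a and Tnfsf10 held none of the letters, Tnfrsf21 held PU.1 letters and Il1r1 held C/EBP letters.

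Il1a (chr2:129309923-129310222, minus strand): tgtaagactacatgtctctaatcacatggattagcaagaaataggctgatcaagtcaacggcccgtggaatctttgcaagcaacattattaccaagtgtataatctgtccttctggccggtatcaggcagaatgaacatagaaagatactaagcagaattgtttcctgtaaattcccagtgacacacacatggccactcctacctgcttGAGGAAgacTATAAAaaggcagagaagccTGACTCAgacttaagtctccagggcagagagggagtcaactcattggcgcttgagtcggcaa
Il18bp (chr7:102018183-102018482, minus strand): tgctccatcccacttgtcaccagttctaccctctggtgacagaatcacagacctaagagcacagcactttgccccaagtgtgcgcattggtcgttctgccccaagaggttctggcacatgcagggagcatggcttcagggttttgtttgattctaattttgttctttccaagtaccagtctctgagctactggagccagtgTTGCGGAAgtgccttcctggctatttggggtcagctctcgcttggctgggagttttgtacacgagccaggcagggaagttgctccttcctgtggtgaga
Csf2rb2 (chr15:78305672-78305971, minus strand): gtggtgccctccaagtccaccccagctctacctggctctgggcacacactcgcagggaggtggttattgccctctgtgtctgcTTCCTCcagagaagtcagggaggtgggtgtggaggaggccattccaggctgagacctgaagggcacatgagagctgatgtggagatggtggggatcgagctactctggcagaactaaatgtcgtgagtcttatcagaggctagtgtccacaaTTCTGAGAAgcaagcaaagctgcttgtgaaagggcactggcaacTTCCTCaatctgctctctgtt
Il6ra (chr3:89913147-89913446, minus strand): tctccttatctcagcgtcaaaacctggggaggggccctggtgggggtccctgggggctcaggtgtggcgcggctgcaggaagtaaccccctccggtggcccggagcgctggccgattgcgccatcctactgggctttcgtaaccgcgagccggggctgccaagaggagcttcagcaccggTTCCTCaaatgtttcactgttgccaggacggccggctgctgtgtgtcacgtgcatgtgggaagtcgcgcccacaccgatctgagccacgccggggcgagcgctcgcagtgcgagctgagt

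In Il1rn the match is GGGTTTTTCC, 30 bases downstream of the start shown, whereas in Il6 GGGATTTTCC lies at -44 and is accompanied by C/EBP letters at -128 and by AP-1 letters near the upstream end. Il1a carries PU.1 letters at -41, a TATA box at -32 and AP-1 letters at -12. Il18bp has C/EBP letters at -49, Csf2rb2 has PU.1 letters at -167 and 30 and STAT letters at -15, and Il6ra has PU.1 letters at -70. The NF-kB letters were in 11 of the 103 member promoters (10.7%, 10 genes) and in 1.63% of all 32851 promoters of this length. The AP-1 letters were in 18.4% against 7.81%, and the STAT letters in 18.4% against 8.3%. PU.1 letters, which are short and common, were in 33% of member promoters and in 28.3% of all. Of the 10 genes with NF-kB letters 6 were measured in these livers, and Il1rn alone was at least 1.5-fold different. The others were Il16 (log2 ratio 0.56), Csf1 (-0.21), Il4ra (-0.15), Il17rc (-0.07) and Tnfrsf9 (at least 0.10, control below the floor). These matches describe the letters of the sequence and do not show that a factor bound there.

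Signals below 86.6, the median of all values, were raised to that floor, a gene took the probe set with the highest mean log2 signal, and a gene that reached the floor on at least 1 array counted as measured. Where only 1 array reached it, the fold is a minimum, given as "at least". In all, 48 of the 111 members were measured, 35 of them on both arrays, compared with 12290 of the 18193 genes in the whole series. Receptors were detected more broadly than ligands, with 31 of 59 receptor genes measured (52.5%) and 15 of 47 ligand genes (31.9%). The other 63 members lay below the floor on both arrays, and their ratios are not given.

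At a 2-fold threshold 0 of the 48 measured members differed, beside 3.4% of all 12290 measured genes, 2.7% upward and 0.7% downward in the L-Lpcat3 KO pool. With so few members a count of 0 is close to that share and does not set them apart. It also depends on the floor and on the probe set taken, as described below. At 1.5-fold, 16 members were higher and 3 lower, and over all measured genes 12.9% differed, 9.07% upward and 3.83% downward. For 7 of the 16 the control value was below the floor, so that they counted as measured through the L-Lpcat3 KO array alone. Among the 35 members above the floor on both arrays 9 were at least 1.5-fold higher and 3 lower, beside 8.23% and 3.56% of the 10973 genes of that kind. The median log2 ratio of these 35 was 0.14, with -0.07 for 9 ligands and 0.14 for 25 receptors, and that of all such genes was -0.003. Probe sets of the same gene differed in log2 ratio with a pooled SD, the only measure of technical spread here, of 0.31 over 5228 genes. It was 0.43 at mean signals from 86.6 to 200, where many members lie, 0.28 from 200 to 1000 and 0.17 above 1000. This spread does not include differences between mice.

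**Figure D1:**
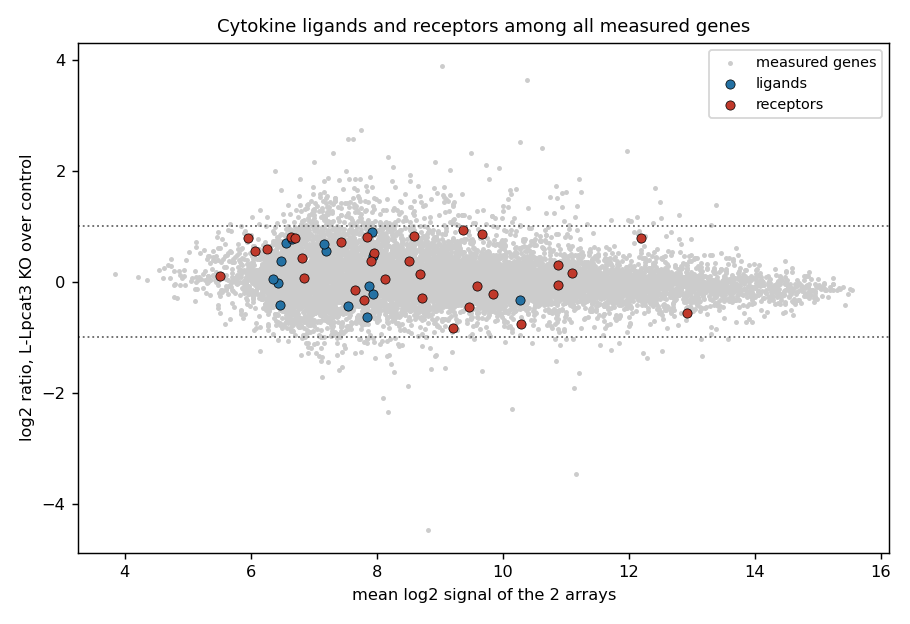
Grey points are all measured genes; the x axis is mean log2 signal over both pools, and the y axis is log2 ratio (L-Lpcat3 KO over control). Ligands are blue, receptors red, and dotted lines stand for 2-fold. All 15 ligands and 31 receptors lie between the dotted lines, and most ligands sit at the left, at low signal.

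Among ligands, the IL-1 family had the most measured genes, 8 of 10. Of the 5 above the floor on both arrays 3 lay above and 2 below a log2 ratio of 0, and the other 3 (Il1b, Il1f5 and Il1f6) counted as measured through the L-Lpcat3 KO array alone, so that they could only lie above 0. Il1rn, which encodes the IL-1 receptor antagonist, had a signal of 178 in the control pool and 330 in the L-Lpcat3 KO pool, 1.86-fold higher. Its 3 measured probe sets all pointed the same way but differed in size, from 0.10 to 1.10 on the log2 scale, so the extent of the rise is uncertain. Il1a, an alarmin released by damaged cells, was at 113 and 181, which is 1.6-fold higher. The agonist Il1b, a product of activated macrophages, was below the floor in control (63.6) and at 140 in L-Lpcat3 KO liver, at least 1.62-fold higher. Of these 3 genes, Il1rn and Il1a were above the floor on both arrays and read higher in the L-Lpcat3 KO pool. At the signal of Il1a the spread among probe sets of a gene was 0.43. Il1b could only lie above 0 and adds nothing on direction.

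Il18bp, which encodes a secreted protein that binds and neutralises IL-18, had a signal of 218 in the control pool and 409 in the L-Lpcat3 KO pool, 1.87-fold higher on its single probe set. Il18 itself, whose product matures through caspase-1, was at 1382 and 1099, a log2 ratio of -0.33 that did not reach 1.5-fold. The ligand and its soluble inhibitor therefore lay on opposite sides of 0. Il33, an alarmin of endothelial and stellate cells that acts through ST2, was at 210 and 289 (log2 ratio 0.46). Il1f6, now called Il36a, was at 67.9 in the control pool and 149 in the L-Lpcat3 KO pool, at least 1.72-fold higher, while the related Il1f10 was at 215 and 160 (log2 ratio -0.43). Il1f5, the antagonist of the IL-36 receptor, was at 70.1 and 113, at least 1.31-fold higher.

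**Figure D2:**
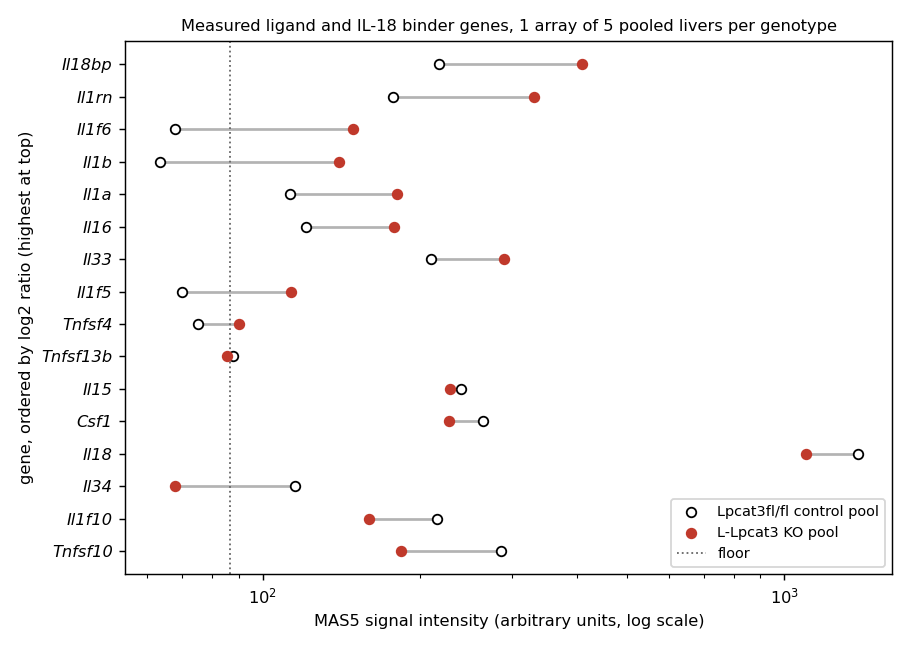
The x axis gives the MAS5 signal on a log scale for each measured ligand gene and for Il18bp, with open circles for the control pool and red circles for the L-Lpcat3 KO pool; genes are ordered by log2 ratio and the dotted line is the floor of 86.6. Il18bp and Il1rn head the order at 409 and 330 in L-Lpcat3 KO liver, and Tnfsf10 is last.

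Of the ligands of the CSF-1 receptor only Csf1 was above the floor on both arrays, and it was not higher. Csf1, the main growth factor of Kupffer cells, had a signal of 264 in the control pool and 228 in the L-Lpcat3 KO pool (log2 ratio -0.21), and its 3 measured probe sets ran from -0.21 to -0.01. Il34, the alternative ligand of the same receptor, was at 115 in control and below the floor in L-Lpcat3 KO liver (67.8), at least 1.33-fold lower. It was measured through the control array alone, could only lie below a log2 ratio of 0 and adds nothing on direction. Il15, a survival factor of NK cells and memory T cells, was at 240 and 229 (log2 ratio -0.07). Il16, a leukocyte attractant, was at 121 and 178 (0.56), but 1 of its 3 measured probe sets gave -0.15.

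Of the 10 TNF superfamily ligands only 3 were measured. Tnfsf10 encodes TRAIL, an inducer of apoptosis, and its direction could not be settled. The probe set of highest mean signal was at 287 in the control pool and 184 in the L-Lpcat3 KO pool (log2 ratio -0.64), but the other 2 gave -0.16 and at least 1.54-fold higher. Tnfsf13b, which encodes the B cell survival factor BAFF, was at 87.8 and 85.3, at the floor itself. Tnfsf4, the ligand of OX40, was at 75.2 and 90.0, at least 1.04-fold higher.

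Several ligands that are commonly followed as inflammatory markers were below the floor in both pools. Tnf was at 12.1 in the control pool and 12.0 in the L-Lpcat3 KO pool, and Il6 was at 18.5 and 7.94. Il10 was at 21.7 and 53.0, Il12b at 47.3 and 46.0, and Il17a at 61.3 and 72.1. Among the colony stimulating factors, Csf2 was at 25.04 and 10.4 and Csf3 at 10.6 and 32.0. Lta was at 49.9 and 50.1, and Ltb, its partner in the lymphotoxin heterotrimer, was at 2.6 and 69.5. No ligand of the IL-17, IL-10, IL-6 and IL-12, or IL-3, IL-5 and GM-CSF families was measured, which covers 4, 3, 7 and 3 genes. At this detection limit a difference in any of them was not measurable, and the values do not show that their mRNAs are absent from the liver.

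Among receptors for the myeloid growth factors, Csf1r, Csf2rb and Csf2rb2 were at least 1.5-fold higher in the L-Lpcat3 KO pool and none reached 2-fold. Csf1r, which encodes the receptor that maintains macrophages, had a signal of 3548 in the control pool and 6138 in the L-Lpcat3 KO pool, 1.73-fold higher. All 3 of its probe sets pointed the same way, with log2 ratios of 0.58, 0.79 and 1.16. The receptor of CSF-1 was thus higher in the same arrays in which Csf1 was not.

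Csf2rb, the signalling chain shared by the receptors of GM-CSF, IL-3 and IL-5, was at 603 in the control pool and 1096 in the L-Lpcat3 KO pool (1.82-fold higher), with a log2 ratio of 0.26 on its second probe set. Csf2rb2, a mouse paralog that serves IL-3, was at 135 and 223 (1.65-fold higher). Because these paralogs are closely related in sequence, their probe sets may not separate them fully. Csf2ra, the GM-CSF binding chain, was at 208 and 298 (log2 ratio 0.52), and Il3ra was at 65.5 and 151, at least 1.75-fold higher. Of the 3 chains of this group above the floor on both arrays 2 reached 1.5-fold, Il3ra was measured through the L-Lpcat3 KO array alone, and the IL-5 binding chain Il5ra was below the floor in both pools. Csf3r, the G-CSF receptor of neutrophils, was at 211 and 274 (log2 ratio 0.37).

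**Figure D3:**
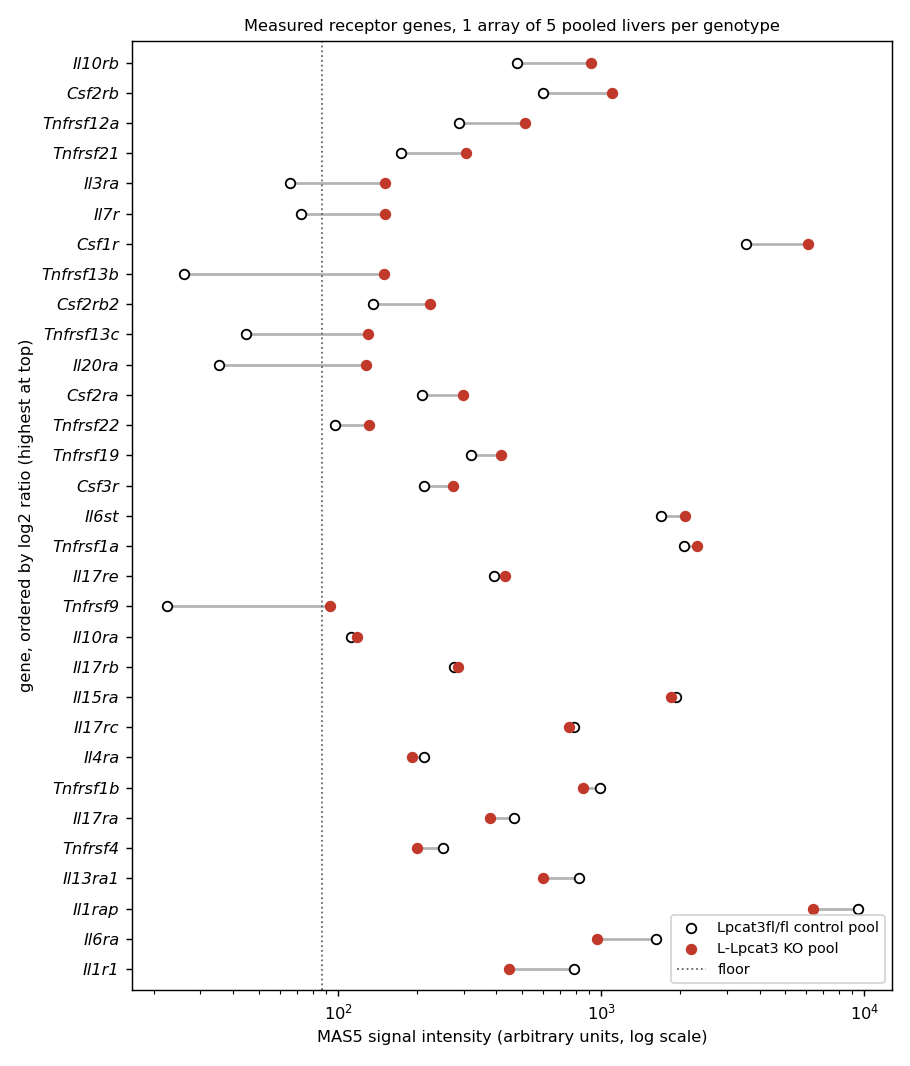
The x axis gives the MAS5 signal on a log scale for each of the 31 measured receptor genes, with open circles for the control pool and red circles for the L-Lpcat3 KO pool; genes are ordered by log2 ratio and the dotted line is the floor of 86.6. Il10rb, Csf2rb and Tnfrsf12a head the order, and Il1rap, Il6ra and Il1r1 are at its foot.

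Of the receptor chains for IL-1 and IL-6, Il1r1 and Il6ra were at least 1.5-fold lower. Il1r1, the signalling receptor of IL-1, had a signal of 790 in the control pool and 445 in the L-Lpcat3 KO pool, 1.78-fold lower on its single measured probe set. Its partner chain Il1rap was at 9459 and 6371, 1.48-fold lower, and its 4 measured probe sets all lay below 0, from -0.57 to -0.24. Il6ra, the IL-6 binding chain, was at 1623 and 960 (1.69-fold lower), with -0.76 and -0.69 on its 2 probe sets. These 3 genes had the lowest log2 ratios of the 31 measured receptors. The shared signal transducer Il6st (gp130) differed from its partner Il6ra, at 1688 and 2087 (log2 ratio 0.31). The ST2 gene Il1rl1 was not analysed here, and the decoy receptor Il1r2 and the IL-18 receptor chains Il18r1 and Il18rap were below the floor in both pools.

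Within the IL-10 receptor group, Il10rb, which also serves IL-22 and interferon lambda, had a signal of 479 in the control pool and 915 in the L-Lpcat3 KO pool, 1.91-fold higher. This was the highest log2 ratio among receptors (0.93), and it rests on the single measured probe set of the gene. Il10ra, the chain specific for IL-10, was at 112 and 118, with a log2 ratio of 0.07, and of at least 0.54 on its other measured probe set. Il20ra was at 35.3 and 127, at least 1.47-fold higher.

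Receptors of the common gamma chain and IL-13 group gave 4 measured genes of 9. Il7r, a receptor of lymphocytes, was at 72.6 in the control pool and 151 in the L-Lpcat3 KO pool, at least 1.74-fold higher. Il13ra1 was at 822 and 603 (log2 ratio -0.45), and its 4 measured probe sets lay between -0.45 and -0.12. Il4ra was at 213 and 191 (-0.15) and Il15ra at 1931 and 1848 (-0.06). Il2rg, the common gamma chain itself, was not analysed here. All 4 measured IL-17 receptor genes lay within 1.5-fold, from -0.30 for Il17ra (466 and 379) to 0.14 for Il17re (391 and 430), with Il17rc (788 and 753) and Il17rb (276 and 286) between them.

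Of the 19 TNF receptor superfamily genes 10 were measured. Among the 7 above the floor on both arrays 5 lay above 0 and 2 below, and 2 were at least 1.5-fold higher. The other 3 (Tnfrsf13b, Tnfrsf13c and Tnfrsf9) were measured through the L-Lpcat3 KO array alone and could only lie above 0. Tnfrsf12a (Fn14), the receptor of TWEAK and a marker of injured hepatocytes and progenitor cells, had a signal of 289 in the control pool and 511 in the L-Lpcat3 KO pool, 1.77-fold higher, and a log2 ratio of 1.19 on its other probe set. Tnfrsf21 (death receptor DR6) was at 173 and 305 (1.76-fold higher) with a log2 ratio of 0.82, and of at least 0.86 on its other probe set. The B cell receptors of BAFF and APRIL were below the floor in control. Tnfrsf13b (TACI) was at 25.96 and 150, at least 1.73-fold higher, and Tnfrsf13c (the BAFF receptor) at 44.8 and 130, at least 1.51-fold higher. Tnfrsf17, of the same group, was below the floor in both pools, at 5.67 and 5.81. The receptors of TNF itself were close to equal. Tnfrsf1a was at 2069 and 2318 (log2 ratio 0.16), and Tnfrsf1b at 987 and 850 (-0.22). Tnfrsf19 had probe sets from -0.75 to 0.46, a disagreement of more than 2-fold, and its representative was at 321 and 417 (0.38). Tnfrsf4 (OX40) was at 250 and 200 (-0.32), the decoy receptor Tnfrsf22 at 97.2 and 131 (0.43), and Tnfrsf9 at 22.3 and 93.0, at least 1.07-fold higher. Tnfrsf11b (osteoprotegerin) was below the floor in both pools, at 74.7 and 79.4 on its brighter probe set.

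Counting probe sets instead of genes, 3 of the 79 measured member probe sets were at least 2-fold higher and 0 were 2-fold lower, beside 2.36% and 0.791% of all 20847 measured probe sets. The 3 belong to Csf1r, Tnfrsf12a and Il1rn. Among the 3 other transcripts, the opposite strand RNA Tnfsf13os was measured, at 63.0 and 173, which with the control raised to the floor fell just short of 2-fold.

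**Figure D4:**
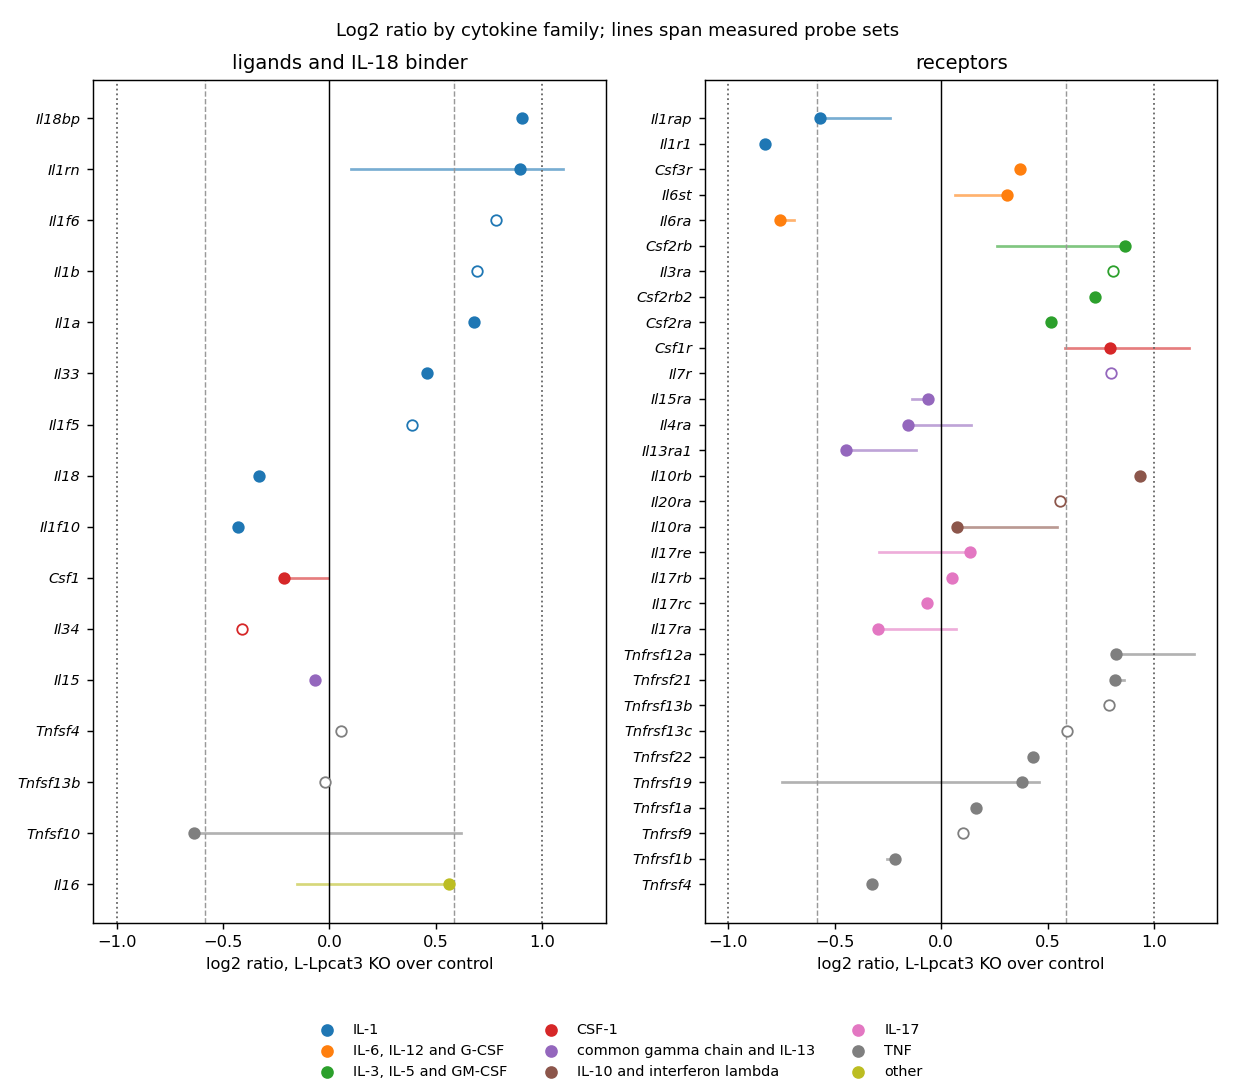
Measured ligands with Il18bp (left) and receptors (right) are placed by log2 ratio, L-Lpcat3 KO against control, and coloured by family; horizontal lines span the measured probe sets of the gene, open points have 1 array below the floor, dashed lines mark 1.5-fold and dotted lines 2-fold. Points of the IL-3, IL-5 and GM-CSF receptors and of Csf1r lie to the right (0.52 to 0.86), and Il1rap, Il1r1 and Il6ra to the left (-0.83 to -0.57).

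Genes of the same families under other names gave 18 measured genes of 25, with a median log2 ratio of 0.24 (0.13 for the 13 above the floor on both arrays). Of these genes 3 were at least 1.5-fold higher, beside 9.07% of all measured genes. Osmr, the oncostatin M receptor, was at 181 and 444 (2.45-fold higher). Fas, a death receptor, was at 488 and 941 (1.93-fold higher), and Ngfr was at 22.4 and 163, at least 1.88-fold higher. Lifr, a partner of gp130, was at 3628 and 2685 (log2 ratio -0.43), and -1.17 on its other probe set.

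Over all measured genes 12.9% differed by at least 1.5-fold, 9.07% upward and 3.83% downward, and counts in the short lists here stand beside these shares. Downstream of the receptors, 1 of 15 measured JAK, STAT and SOCS genes differed by 1.5-fold, Stat5b at 1190 and 777 (1.53-fold lower). The list median was -0.11, with Stat3 at 2324 and 2151 (-0.11) and Socs3, an early target of IL-6 signalling, at 278 and 186 (-0.58), although the probe sets of Socs3 ran from -0.58 to 0.42. Of 27 measured adaptors and NF-kB genes 2 were at least 1.5-fold higher and 1 lower (median 0.05). Tnfaip3, the NF-kB inhibitor A20, was at 253 and 586 (2.31-fold higher), Birc3, which encodes cIAP2, was at 692 and 1098 (1.59-fold higher), and the kinase gene Irak1 was at 2189 and 1274 (1.72-fold lower) with probe sets from -0.78 to 0.28. Nfkbia, another NF-kB target, was at 7939 and 8000 (0.01). Of 8 genes that process cytokines 6 lay above 0 and 2 below. At least 1.5-fold higher were 2 of them, Pycard at 143 and 269 (1.88-fold) and Nlrp3 at 144 and 247 (1.72-fold). At their mean signal the spread among probe sets of a gene was 0.43. Gsdmd was lower, at 1085 and 854 (-0.345). Casp1, which cleaves IL-1 beta and IL-18, was at 142 and 174 (0.29).

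Markers of the cells that express these genes also differed between the pools, and in RNA of whole liver more cells of a type and more RNA per cell cannot be told apart. All 15 Kupffer cell and macrophage markers, Csf1r among them, were above 0, with a median log2 ratio of 1.17 and a range from 0.49 to 1.86, and their summed signal was 15765 in the control pool and 35017 in the L-Lpcat3 KO pool. Cd5l (3000 and 6752) and Csf1r had the highest signals of that list. Of the B cell and plasma cell markers 8 of 9 were measured (median 1.36), with a summed signal of 1321 and 5254. The 4 above the floor on both arrays were all above 0 (median 1.52), Ighm (518 and 2975) and Jchain (188 and 721) among them, while Cd79a, Cd79b, Ms4a1 and Blk were measured through the L-Lpcat3 KO array alone and could only lie above 0. Pax5 was below the floor in both pools. The 10 hepatocyte markers lay from -0.43 to 0.37, with a median of -0.22, 8 of them below 0 and a summed signal of 268656 and 242859. Apoa1 was at 48786 and 44841 and Ttr at 42596 and 38429. What part these marker differences have in the ratios of Csf1r, Csf2rb, Tnfrsf13b and Tnfrsf13c on the one hand, and of Il1r1, Il1rap and Il6ra on the other, was not tested.

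Stellate cell and fibroblast markers had a median log2 ratio of 0.73 (9 of 10 above 0, summed signal 16519 and 26499; Dcn 5949 and 8661, Col3a1 3704 and 7781). Sinusoidal endothelial markers had a median of 0.39 (9 of 10 above 0, summed signal 8217 and 10608; Clec4g 2458 and 3044, Fcgr2b 1838 and 2181). Markers of T cells and NK cells were measured for 4 of 11 genes (Cd2 64.5 and 116). All 4 were measured through the L-Lpcat3 KO array alone and could only lie above 0, so they give no direction for this list. Cd3d, Cd3g, Cd4, Cd8a, Cd8b1, Gzma and Ncr1 were below the floor in both pools. Neutrophil markers were measured for 5 of 8 genes (median 0.33), with Camp, Elane and Cxcr2 below the floor. Csf3r and Ngp (120 and 99.9) were above it on both arrays, with a median of 0.05, and S100a8 (84.8 and 185), S100a9 and Mpo on the L-Lpcat3 KO array alone. Mast cell markers were below the floor except Kit (165 and 219). Dendritic cell markers were measured for 5 of 8 genes (median 0.35). Batf3 was at 127 and 160, Cd209a at 118.5 and 151, and Zbtb46 at 201 and 333 although its probe sets ran from -0.30 to 0.73. Siglech was at 108 and 76.9, below the floor in L-Lpcat3 KO liver. Itgax was at 72.5 and 261.5, at least 3.02-fold higher, and was measured through the L-Lpcat3 KO array alone. Cholangiocyte markers were measured for 2 of 5 genes (median -0.10), Epcam at 145 and 136 and Sox9 at 94.2 and 79.9.

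**Figure D5:**
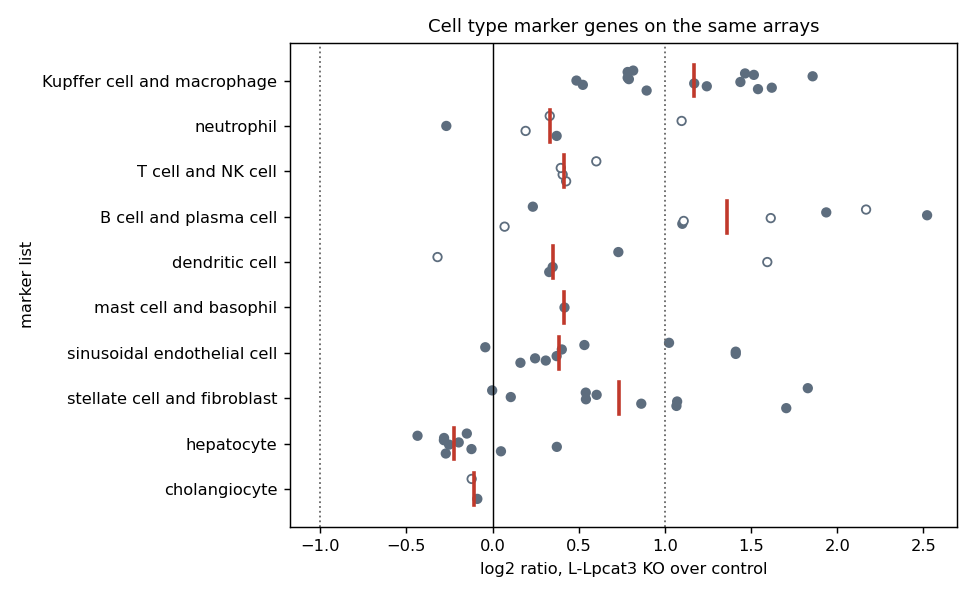
Points are measured marker genes on an axis of log2 ratio (L-Lpcat3 KO over control), open where 1 array was below the floor; a red bar shows the median of a list and dotted lines 2-fold. The macrophage list has a median of 1.17, the B cell list 1.36 and the hepatocyte list -0.22.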

How the data were processed

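RNA of 5 livers was pooled per genotype and hybridised to 1 array each. Per the labels, the authors processed the arrays with MAS5 (version not given in the sources used here), and per the methods they used GenespringGX; the deposited values are signal intensities on a linear scale, whose mean after trimming 2% was 500 for either pool. Scaling of this kind takes total signal to be equal between pools, and low intensities carry most noise. The arrays hold 45101 probe sets: 34958 with a single gene symbol, 932 with several (excluded, 7 of them annotated to a member) and 9211 unnamed here; 64 are controls. Gene identifiers of all 111 members matched RefSeq (GRCm38.p6, names only). Values were raised to a floor (86.6), log2 ratios were computed at the probe set with highest mean log2 signal, and genes were counted at 2-fold and 1.5-fold. With 1 array per group no p-value was computed. The counting was tested on simulated data, with a single spread for all signals and changes planted only in genes well above the floor in control. That test does not cover genes near the floor, where many members lie.

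Members and lists were chosen with earlier results of these data known. Named are Lpcat3, members at least 1.5-fold different, 8 ligands and 12 receptors of highest signal, members whose probe sets disagree by 2-fold, a preset set of well-known cytokines and receptors, pathway genes at least 1.5-fold different and the 2 brightest markers per list; other names were chosen after their values were seen. Alternatives changed scaling, floor, pseudocount, probe sets, threshold and member rule. Calculations used pandas 2.3.3 and numpy 2.4.6 under Python 3.11.15, with loess from statsmodels 0.14.6 and plots from matplotlib 3.10.9.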

Additional observations from a re-analysis of the deposited data

How the results depend on the processing

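With 1 array per genotype no replicate could be left out. No member was 2-fold higher or lower under loess, quantile normalization, median centring or with probe sets ending in _x_at, _s_at or _a_at left out. Updated symbols, which renamed no member, also gave none. A 75th percentile floor, members above the floor on both arrays and a 3-fold threshold gave none either. These last settings could not have raised the count. With the floor at the 25th percentile (25.5) 18 members were at least 2-fold higher and 3 lower, of which 5 and 1 were ligands and 12 and 2 receptors; 86 members then counted as measured. With values below the floor kept 9 members were higher, 2 ligands and 6 receptors among them. A pseudocount of the floor value gave 1 higher member (a receptor), and the mean of measured probe sets also gave 1, a receptor. At 1.5-fold 16 members were higher and 3 lower, 4 and 1 among ligands and 10 and 2 among receptors. With the floor at the 75th percentile (405) the median log2 ratio of measured ligands changed from 0.06 to -0.33, with 1 ligand left, and that of receptors from 0.31 to -0.011, with 16 left. The fewer or more genes above each floor are part of that alternative's construction. Median centring moved the median of all genes by -0.11 and turned the sign of Il10ra and Il17rb, with 14 members then at least 1.5-fold higher and 4 lower; quantile normalization turned that of Il10ra, and the mean of probe sets that of Il17re. For the 19 members at least 1.5-fold different, 188 log2 ratios were recomputed; 100 of them differed at all from the reported value, since updated symbols, the stricter member rule and a lower floor leave a gene above the floor as it was, and 15 of these moved by more than the probe set SD. Low signal limits the ligands most. No paired analysis was possible because each genotype had 1 pooled array.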
